A study of Mus musculus with 2 samples.

Results

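The genes described here are 10 genes of the unfolded protein response, the set of signals with which a cell answers a load of unfolded protein in the endoplasmic reticulum (ER). They were taken by symbol from the gene list of a single-cell RNA-seq study of mouse small intestinal epithelium, and they are 10 of the 55357 gene entries counted. All 10 were found. Ddit3 has a second entry under the same symbol, which held 0 unique molecular identifiers (UMIs, the tags that mark single captured RNA molecules), so the values below are those of the first entry, with 4155 UMIs. The study compared 2 libraries of crypt-enriched whole small intestinal epithelium, each pooled from 8-week-old male mice. One library came from Adipfl/fl mice, in which the gene for the hormone adiponectin is flanked by loxP sites on both alleles, and the other from Adipfl/flpVilli-CreT mice, which carry the same floxed alleles and a Cre recombinase whose name points to the villin promoter, known to drive expression in intestinal epithelium. The sources used here do not say what the T in CreT stands for. The comparison addressed what adiponectin made in the epithelium does to the cells of the crypt and villus. Each genotype has 1 library, so no difference between genotypes can be set against the spread between animals, and every interval below is a 95% interval for counting error only.

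The unfolded protein response has 3 sensors in the ER membrane. IRE1 cuts the Xbp1 mRNA so that it encodes an active transcription factor, PERK slows translation and so favours the transcription factor ATF4, and ATF6 is cut in the Golgi to release a transcription factor of its own. XBP1 and ATF6 raise ER chaperones and degradation factors, while ATF4 raises amino acid genes and Ddit3, which encodes CHOP. In the gut, cells that secrete much protein, such as goblet, Paneth and plasma cells, are known to depend on this response, and IRE1 exists there in a second form, IRE1β, encoded by Ern2 and known from mucus-producing epithelium. The libraries count 3′ ends of transcripts, so they do not show how much of the Xbp1 mRNA was spliced.

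On GRCm38 the sensors lie on chromosome 11 (Ern1, ENSMUSG00000020715, 106394650 to 106487852, minus strand), chromosome 7 (Ern2, ENSMUSG00000030866, 122169893 to 122186207, minus strand) and chromosome 1 (Atf6, ENSMUSG00000026663, 170704674 to 170867771, minus strand). The transcription factors lie on chromosome 11 (Xbp1, ENSMUSG00000020484, 5520659 to 5525893, plus strand), chromosome 15 (Atf4, ENSMUSG00000042406, 80255184 to 80257541, plus strand) and chromosome 10 (Ddit3, ENSMUSG00000025408, 127290774 to 127296288, plus strand). The chaperones lie on chromosome 2 (Hspa5, ENSMUSG00000026864, 34771970 to 34777547, plus strand), chromosome 10 (Hsp90b1, ENSMUSG00000020048, 86690209 to 86705509, minus strand), chromosome 6 (Pdia4, ENSMUSG00000025823, 47796141 to 47813430, minus strand) and chromosome 12 (Dnajb9, ENSMUSG00000014905, 44205559 to 44210326, minus strand).

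Promoter sequence was read for 8 of the 10 members from RefSeq (GRCm38.p6, 250 bases before to 50 bases after each start); Ern2 and Atf6 had no entry. The 3 stretches below are shown because the chaperone genes they belong to are those whose levels are compared most often here, and because they hold the letters that ATF6 and XBP1 are known to bind. Capitals mark a match on either strand. In Hspa5 and Hsp90b1 they mark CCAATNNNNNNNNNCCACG, known as the ER stress response element, and in Dnajb9 they mark ACGTGG, the core of the unfolded protein response element, which here reads on the opposite strand.
Hspa5 (chr2:34772020-34772049, plus strand): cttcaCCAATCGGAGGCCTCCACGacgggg
Hsp90b1 (chr10:86705510-86705694, minus strand): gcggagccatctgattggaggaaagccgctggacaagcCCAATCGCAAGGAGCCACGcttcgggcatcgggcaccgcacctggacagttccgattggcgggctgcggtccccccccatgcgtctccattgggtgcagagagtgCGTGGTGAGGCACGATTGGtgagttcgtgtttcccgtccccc
Dnajb9 (chr12:44210159-44210188, minus strand): aacaacagttttCCACGTgcgcgtagggcg
The Hspa5 match began 65 bases before the RefSeq start, the Hsp90b1 matches 212 and 107 bases before it, and the Dnajb9 match 108 bases before it. The Hspa5 and Dnajb9 stretches lie inside the gene bounds given above, which reach further upstream than RefSeq, whereas the Hsp90b1 stretch lies outside and next to its gene. The ER stress response element occurred in the windows of 37 of 27025 gene symbols (0.137%), and 2 of the 8 members with a window held it. Of a list of 20 other ER chaperones and foldases, 6 of the 17 with a window held it, namely Calr, Canx, Pdia6, Dnajc3, Creld2 and Ero1b. The short core occurred for 9.4% of symbols and, among the members, for Dnajb9. These matches describe letters in a window and are no evidence of binding.

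Adipoq, the targeted gene, gave 1 UMI in the Adipfl/fl library and 0 in the Adipfl/flpVilli-CreT library, too few to check the labels. A barcode counted as a cell if over 500 genes were detected in it and mitochondrial UMIs made up less than 25%, which left 3069 and 5555 cells with a median of 4838 and 4749 UMIs. The libraries shared 31 barcodes, of which 3 were among the kept cells. Cells were clustered without the members and the listed pathway genes and named from marker genes. Values are given as UMIs of a gene per 1000000 UMIs of all cells of a class (CPM). A class in which a few transcripts take much of the total shows lower CPM for everything else: the 7 goblet markers summed to 322325 CPM in Adipfl/fl and 264834 CPM in Adipfl/flpVilli-CreT goblet-like cells, and the B or plasma cell markers to 528439 and 479356 CPM in B or plasma-like cells. Goblet-like cells numbered 225 and 409. All 7 goblet markers marked them and 7 of 9 Paneth markers did too, so Paneth cells were not separated from them, and 93 and 153 of them carried a UMI of a Paneth defensin. Absorptive cells, taken over all enterocyte-like zones, numbered 1902 and 3830.

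**Figure D1:**
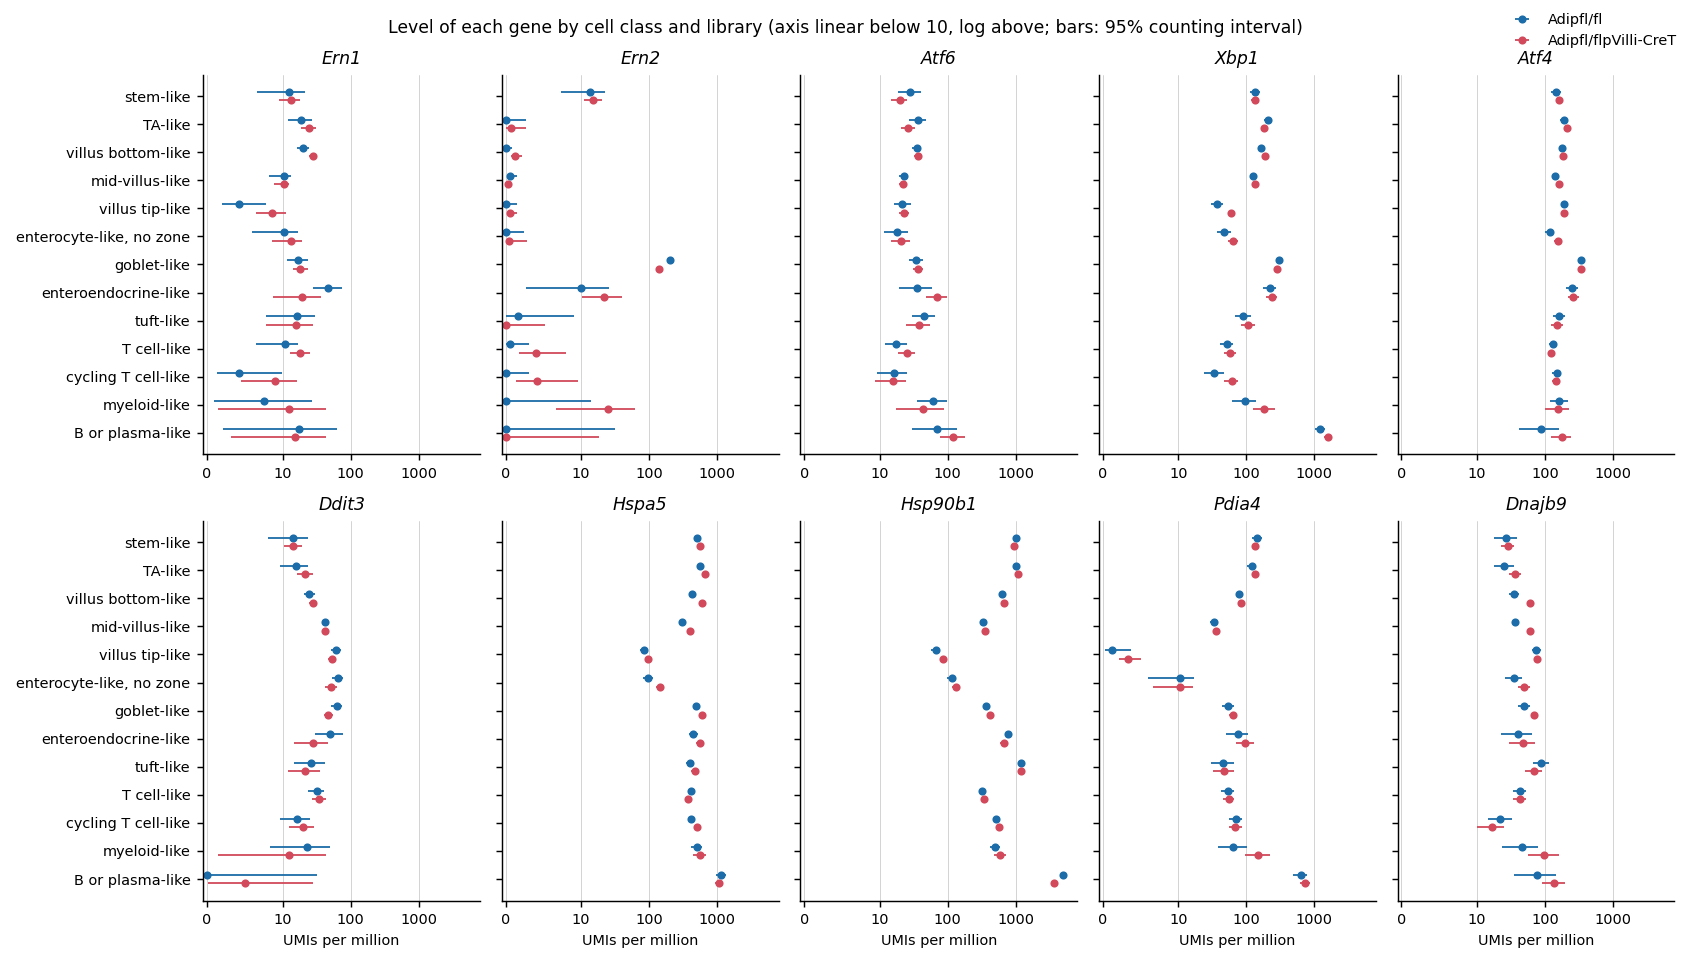
Level of each of the 10 members in each named cell class, with 1 point per library and 95% counting intervals. The CPM axis is linear below 10 and log above. Ern2 stands at 203 and 137 CPM in goblet-like cells and at most 24.5 CPM in any other class, whereas Hspa5 and Hsp90b1 span all classes and peak in B or plasma-like cells.

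Among the sensors, Ern2 was the member most restricted to one class. In goblet-like cells it gave 384 UMIs (203 CPM, interval 183 to 224) in the Adipfl/fl library and 501 UMIs (137 CPM, 125 to 149.7) in the Adipfl/flpVilli-CreT library. In absorptive cells it gave 4 UMIs (0.262 CPM) and 22 UMIs (0.688 CPM), so that the goblet-like level was 775-fold (300.1 to 2858) and 199-fold (130.2 to 321) the absorptive one. Both libraries put Ern2 far above every enterocyte zone. Small amounts were also counted in stem-like cells (13.5 and 15.1 CPM) and in enteroendocrine-like cells (9.93 and 21.3 CPM). The stem-like UMIs came from 5 of 41 and 17 of 120 cells. Goblet markers summed to 2840 and 5066 CPM in stem-like and to 2377 and 13224 CPM in enteroendocrine-like cells, against 309 and 1099 CPM in absorptive cells. Of the Paneth markers, 6 also marked the stem-like cluster. The part of goblet or Paneth transcripts in these Ern2 levels was not tested. With each cell thinned to 2000 UMIs, 68 of 215 (31.6%) and 94 of 389 (24.2%) goblet-like cells held an Ern2 UMI. In T cell-like cells, which should lack the gene, the thinned shares were 0 of 344 and 1 of 391 (0.256%). Shares at this depth set no limit on cells expressing the gene. The thinned shares in stem-like cells were 2 of 41 and 5 of 119, with intervals of 0.596% to 16.5% and 1.38% to 9.53%. Without thinning, 167 of 225 goblet-like cells (74.2%) and 256 of 409 (62.6%) held an Ern2 UMI at median depths of 5582 and 6254 UMIs, against 1 of 366 (0.273%) and 4 of 439 (0.911%) T cell-like cells at 4585 and 3995 UMIs. The 23 and 41 goblet-like cells richest in Ern2 held 33.6% and 33.3% of its UMIs, so the signal was spread over many cells.

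Ern1 and Atf6, the sensors found in most cell types, were low and broad. Ern1, the general form of IRE1, ranged from 4.23 CPM in the villus tip-like and cycling T cell-like cells of the Adipfl/fl library to 47.2 CPM in its enteroendocrine-like cells, the latter from 19 UMIs. In goblet-like cells it stood at 16.9 and 18.3 CPM against 12.5 and 15.8 CPM in absorptive cells, with ratios of 1.35 (0.90 to 1.97) and 1.16 (0.89 to 1.5) that do not exclude equality. Atf6 ranged from 15.6 to 121 CPM, and its highest level was in the B or plasma-like cells of the Adipfl/flpVilli-CreT library, with 24 UMIs. In goblet-like cells Atf6 stood at 34.3 and 36.7 CPM, 1.33 times (1.01 to 1.73) and 1.39 times (1.15 to 1.67) the absorptive level.

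Xbp1 and Atf4, the transcription factors downstream of IRE1 and PERK, were both higher in goblet-like than in absorptive cells. Xbp1 stood at 306 and 281 CPM in goblet-like cells and at 115 and 131 CPM in absorptive cells, a ratio of 2.66 (2.42 to 2.93) in Adipfl/fl and 2.14 (2.00 to 2.29) in Adipfl/flpVilli-CreT. Atf4 stood at 338 and 333 CPM against 159 and 175 CPM, a ratio of 2.13 (1.95 to 2.33) and 1.90 (1.79 to 2.03). In enteroendocrine-like cells Xbp1 stood at 221 and 234 CPM, 1.93 and 1.78 times the absorptive level. Ddit3, which encodes the stress-induced factor CHOP, stood at 62.8 and 47.1 CPM in goblet-like cells, 1.49 times (1.21 to 1.81) and 1.16 times (0.99 to 1.36) the absorptive level.

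Of the 10 members, 4 were at least 1.5-fold higher in goblet-like than in absorptive cells in both libraries, namely Ern2, Xbp1, Atf4 and Hspa5, beside 10.9% of the 7085 genes at or above 10 CPM. None was at least 1.5-fold lower, beside 29.7% of those genes. The limit of 10 CPM was on the mean over both classes and libraries. Ern2 passed it only through goblet-like cells, so it could not have been counted as lower. The Hspa5 call was lost, leaving 3 members, under 10% mitochondrial UMIs (ratios of 1.30 and 1.23). It was also lost by a small margin, in the Adipfl/flpVilli-CreT library alone, with more than 1000 genes per barcode (1.44), cells named one by one (1.46), mitochondrial UMIs out of the denominator (1.48) and 30 components (1.49). Hspa5 encodes BiP, the main ER chaperone of the Hsp70 family, and stood at 483 and 599 CPM in goblet-like cells, 1.67 times (1.55 to 1.79) and 1.56 times (1.49 to 1.63) the absorptive level. Against villus bottom-like cells alone the Hspa5 ratio was 1.13 (1.04 to 1.22) and 1.00 (0.96 to 1.05). The mean of per-cell CPM instead of the summed UMIs put 8 members past 1.5-fold in both libraries.

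The other chaperones differed less between goblet-like and absorptive cells. Hsp90b1, which encodes the ER Hsp90 protein GRP94, stood at 366 and 416 CPM in goblet-like cells, 1.02 times (0.94 to 1.1) and 1.08 times (1.03 to 1.14) the absorptive level and 0.59 and 0.63 times the villus bottom-like level. Pdia4, a protein disulfide isomerase, stood at 53.3 and 63.5 CPM with ratios of 1.34 and 1.49. Dnajb9, the BiP co-chaperone ERdj4, stood at 49.6 and 69.8 CPM with ratios of 1.19 and 1.12. The same number of goblet-like cells, taken as those richest in each gene, held 47.5% and 45% of the Hspa5 UMIs and 50% and 48.6% of the Hsp90b1 UMIs, so these chaperones were less evenly spread among goblet-like cells than Ern2 was.

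**Figure D2:**
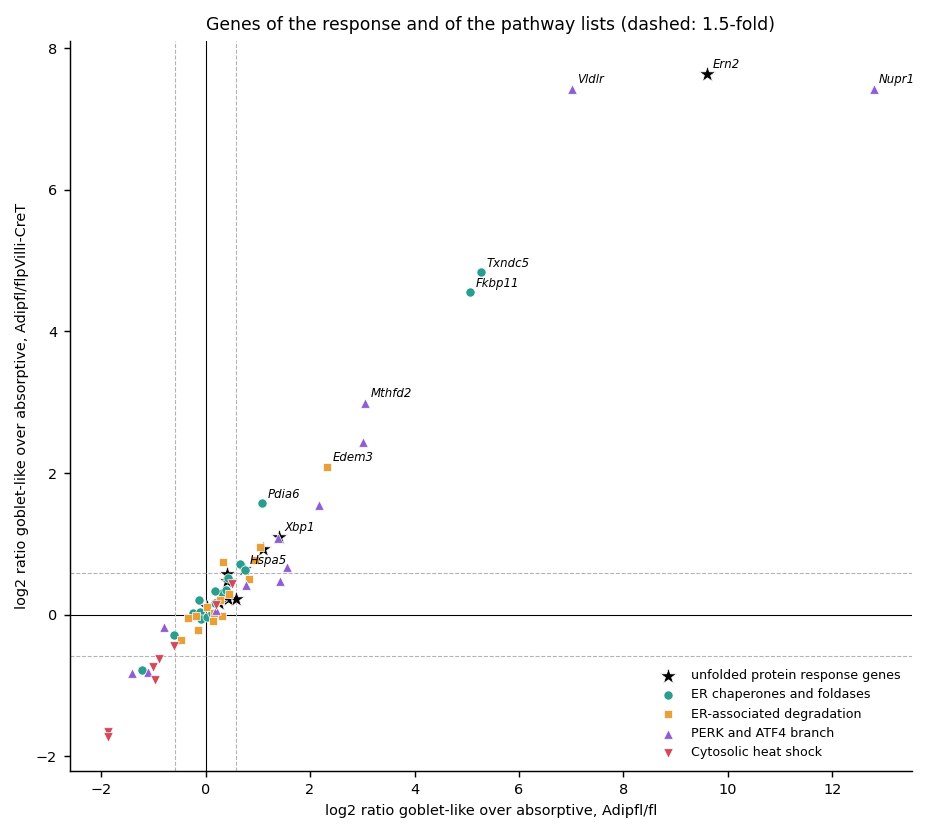
Log2 ratio of goblet-like to absorptive level for the members and the 4 pathway lists, with 1 point per gene at or above 10 CPM. The horizontal axis gives the ratio in Adipfl/fl and the vertical axis that in Adipfl/flpVilli-CreT. Among the members Ern2 lies furthest right and highest, and most genes of the cytosolic heat shock list lie below 0 on both axes.

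Over all genes tested the median log2 ratio of goblet-like to absorptive level was -0.34, with 10.9% higher and 29.7% lower, and the counts of the pathway lists stand beside those values. Of 18 listed ER chaperones and foldases at or above 10 CPM, 5 were at least 1.5-fold higher in goblet-like than in absorptive cells in both libraries (Pdia3, Pdia6, Hyou1, Txndc5 and Fkbp11) and 1 was lower (Canx, the lectin chaperone calnexin). Txndc5, a disulfide isomerase, stood at 722 and 630.1 CPM in goblet-like cells against 18.6 and 22.0 CPM in absorptive cells, a ratio of 38.9 (34.2 to 44.3) and 28.6 (26.3 to 31.2). Fkbp11, an ER prolyl isomerase, stood at 15.3 and 25.7 CPM against 0.458 and 1.09 CPM. Pdia6 was 2.11 and 2.99 times the absorptive level. The list's median log2 ratio was 0.21.

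Of 15 listed genes of ER-associated degradation, 3 were higher in goblet-like cells and none was lower. Edem3, a mannosidase that marks misfolded glycoproteins for disposal, was 5.04 and 4.26 times the absorptive level. Selenos and Selenok, ER selenoproteins, were 2.06 and 1.94 times and 1.91 and 1.71 times it. The list's median log2 ratio was 0.15. Of 13 listed genes of the PERK and ATF4 branch, 7 were higher (Eif2ak3, Ppp1r15a, Asns, Nupr1, Mthfd2, Aars and Vldlr) and 2 were lower (Cebpb and Slc3a2), with a median log2 ratio of 1.11, the highest of the 4 lists. Nupr1, Mthfd2 and Vldlr lay under 10 CPM in absorptive cells and passed the limit on the mean only through goblet-like cells. They could not have been counted as lower, so the list's count and median partly follow from the limit. The same held for Fkbp11 among the chaperones. Mthfd2, a mitochondrial folate enzyme, was 8.28 and 7.96 times the absorptive level. Nupr1, a stress-induced nuclear protein, stood at 463 and 227 CPM in goblet-like cells and at 0.0654 CPM (1 UMI) and 1.31 CPM in absorptive cells. Vldlr, a lipoprotein receptor gene, stood at 25.3 and 16.2 CPM. In Adipfl/fl absorptive cells gave 0 UMIs, so the ratio was 129 with the 0 set to 3 UMIs, and its counting interval began at 101. In Adipfl/flpVilli-CreT Vldlr was at 172-fold (56.1 to 859) the absorptive level.

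Cytosolic heat shock genes answer protein damage outside the ER. The list of them also holds Hspd1 and Hspe1, which encode mitochondrial and not cytosolic chaperonins. Of 8 genes of this list at or above 10 CPM none was at least 1.5-fold higher in goblet-like cells. Lower were 5 (Hspa8, Hsp90ab1, Dnaja1, Hspd1 and Hspe1), beside 29.7% of all genes. The list's median log2 ratio was -0.82 beside -0.34 over all genes. Hspd1 and Hspe1 had the lowest ratios, at 0.27 and 0.32 and at 0.27 and 0.30. The 3 with the highest ratios were Dnajb1 (1.42 and 1.35), Bag3 (1.14 and 1.09) and Hsp90aa1 (0.66 and 0.74). The 5 immediate early genes, which rise during tissue dissociation, summed to 3513 and 3129 CPM in goblet-like cells against 1786 and 1860.4 CPM in absorptive cells. Mitochondrial UMIs took a median of 4.95% and 5.62% in goblet-like cells against 19.6% and 19.0% in absorptive cells. The part of these differences in the ratios was not tested.

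Along the villus Hsp90b1, Hspa5 and Pdia4 were highest near the crypt and lowest at the tip. Hsp90b1 stood at 997 and 952 CPM in stem-like cells, at 994 and 1071 CPM in transit amplifying (TA)-like cells, at 623 and 664 CPM in villus bottom-like cells, at 335 and 355 CPM in mid-villus-like cells and at 66.0 and 83.8 CPM in villus tip-like cells. The level was lower in each zone toward the tip in both libraries, apart from stem-like and TA-like cells, whose levels lay side by side. The villus bottom-like level of Hsp90b1 was 9.44 times (8.04 to 11.2) and 7.92 times (7.26 to 8.66) the tip-like one. Hspa5 stood at 501 and 552 CPM in stem-like, 568 and 657 CPM in TA-like, 428 and 597 CPM in villus bottom-like, 309 and 399 CPM in mid-villus-like and 85.0 and 95.3 CPM in tip-like cells. The order of the zones was that of Hsp90b1 from TA-like cells onward, with the stem-like level a little below the TA-like one. Pdia4 showed a steeper gradient than either, with 145 and 134 CPM in stem-like cells, 77.4 and 83.8 CPM in villus bottom-like cells and 1.27 CPM (3 UMIs) and 3.36 CPM (22 UMIs) in tip-like cells. Its ratio of villus bottom-like to tip-like level was 61.0 (20.7 to 297) and 25 (16.4 to 40.0).

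**Figure D3:**
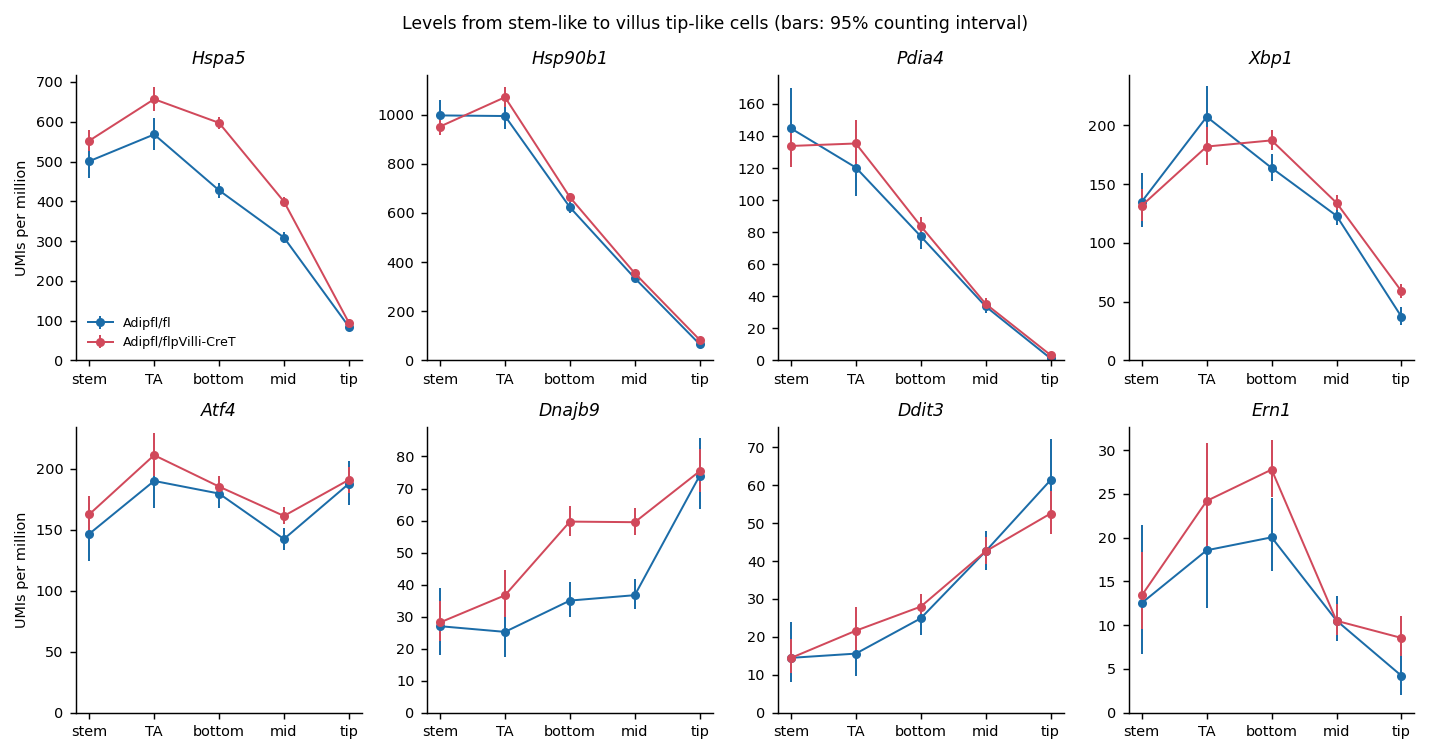
Level of Hspa5, Hsp90b1, Pdia4, Xbp1, Atf4, Dnajb9, Ddit3 and Ern1 in 5 zones from stem-like to villus tip-like cells. Values are in CPM on a linear axis, with a line per library and 95% counting intervals. Hsp90b1, Hspa5, Pdia4 and Xbp1 are lower toward the tip, while Ddit3 stands at 14.5 and 14.4 CPM in stem-like cells and at 61.3 and 52.5 CPM in tip-like cells.

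Ddit3, Dnajb9 and, by less, Atf4 were lower in stem-like than in tip-like cells in both libraries. Ddit3 stood at 14.5 and 14.4 CPM in stem-like, 24.9 and 28 CPM in villus bottom-like, 42.6 and 42.6 CPM in mid-villus-like and 61.3 and 52.5 CPM in tip-like cells. The villus bottom-like level of Ddit3 was 0.41 times (0.32 to 0.52) and 0.53 times (0.45 to 0.63) the tip-like one. Dnajb9 stood at 27.0 and 28.2 CPM in stem-like cells and at 74.0 and 75.4 CPM in tip-like cells, a stem-like over tip-like ratio of 0.37 (0.24 to 0.55) and 0.37 (0.29 to 0.47). Its villus bottom-like over tip-like ratio differed between the libraries, at 0.47 (0.38 to 0.59) and 0.79 (0.70 to 0.89). The stem-like over tip-like ratio of Atf4 was 0.78 (0.65 to 0.94) and 0.85 (0.76 to 0.95). Atf4 stood at 179.7 and 185 CPM in villus bottom-like and 188 and 191 CPM in tip-like cells, while Xbp1 stood at 164 and 187 CPM in the former and 37.2 and 58.9 CPM in the latter. Atf4 showed no steady gradient, with 190 and 211 CPM in TA-like and 142 and 161 CPM in mid-villus-like cells.

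Of the 9 members at or above 10 CPM, 6 were at least 1.5-fold higher in villus bottom-like than in tip-like cells in both libraries (Ern1, Atf6, Xbp1, Hspa5, Hsp90b1 and Pdia4), beside 56% of 6845 genes, and 1 was lower (Ddit3), beside 16.5%. Most genes were thus lower at the tip, and the members' count lies near that background. Ern1 and Pdia4 lay under 10 CPM in tip-like cells and passed the limit only through villus bottom-like cells, so they could not have been counted as lower. Under 10% mitochondrial UMIs only 1 member was counted as higher in villus bottom-like cells (Pdia4) and 1 as lower (Atf4). Hsp90b1, Hspa5, Xbp1 and Ddit3 were then no longer counted. Of 17 listed ER chaperones and foldases, 16 were higher in villus bottom-like cells, with a median log2 ratio of 2.50. So were 7 of 9 genes of the cytosolic heat shock list, the mitochondrial Hspd1 and Hspe1 among them, with a median of 2.85. The median over all genes was 0.95. The listed ER-associated degradation genes gave 8 of 15 higher and 1 lower (Ube2j1), and the PERK and ATF4 branch 4 of 9 higher and 4 lower (Eif2ak3, Ppp1r15a, Ppp1r15b and Atf3). Between stem-like and tip-like cells 4 of 8 members were higher (58.8% of genes) and 2 were lower, Ddit3 and Dnajb9 (20.6% of genes). Median depth went from 24053 and 22888 UMIs in villus bottom-like to 3714.5 and 3494 UMIs in tip-like cells, and median mitochondrial share went from 5.46% and 5.27% to 20.3% and 20.4%. The immediate early genes summed to 1668 and 1579 CPM in villus bottom-like cells and to 2717 and 2822 CPM in tip-like cells. The part of depth, mitochondrial share and dissociation in these gradients was not tested.

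Tuft-like and enteroendocrine-like cells are the rarer lineages. In tuft-like cells, chemosensory cells that numbered 76 and 62, Hsp90b1 stood at 1190.3 and 1197 CPM, 3.30 times (3.05 to 3.57) and 3.11 times (2.90 to 3.34) the absorptive level. Hsp90b1 was the only member at least 1.5-fold higher there in both libraries, beside 28.4% of genes, and Ddit3 the only one lower (15% of genes). In enteroendocrine-like cells, 55 and 57 hormone-producing cells, Xbp1, Atf4, Hsp90b1 and Pdia4 were at least 1.5-fold higher than in absorptive cells (34.7% of genes) and none was lower (17.1%). Ern2, whose mean over both classes and libraries lay under 10 CPM, was at 38.0 times (7.07 to 204) and 31.0 times (13.1 to 68.1) the absorptive level, from 4 and 10 UMIs. Immediate early genes summed to 6025 and 4872 CPM and the median mitochondrial share was 5.18% and 4.33% in enteroendocrine-like cells, against the absorptive values above, and their part was not tested. The Hsp90b1 level there was 779.8 and 660.4 CPM, and the share of cells in the highest 8% of doublet scores was 27.6% and 27.4% for tuft-like and 16.4% and 15.8% for enteroendocrine-like cells. Doublet calling by Scrublet found 3 and 2 cells in all and is taken not to have worked.

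In immune cells the members split between T and B or plasma-like cells. The B or plasma-like class held only 7 and 16 cells, so its levels rest on few of them. Xbp1, whose protein drives plasma cell secretion, gave 141 UMIs (1214 CPM, 1022 to 1432) and 311 UMIs (1564 CPM, 1395 to 1748) there, against 51.5 and 57.6 CPM in T cell-like cells, a ratio of 23.6 (18.0 to 31.0) and 27.2 (21.9 to 34.0). Hsp90b1 stood at 4874 and 3667 CPM, 15.4 times (13.7 to 17.3) and 10.9 times (9.76 to 12.1) the T cell-like level. Hspa5 stood at 1154 and 1056 CPM, 2.80 and 2.83 times the T cell-like level, and Pdia4 at 629 and 734 CPM, 11.8 and 13.3 times it. Of the 9 members at or above 10 CPM, 6 were higher in B or plasma-like than in T cell-like cells in both libraries (Atf6, Xbp1, Hspa5, Hsp90b1, Pdia4 and Dnajb9), beside 6.79% of 7552 genes, and none was lower (44.7%). The richest cell of the class held 29.1% and 27.0% of its Xbp1 UMIs. In the Adipfl/fl library 6 of the 7 B or plasma-like cells were among the highest 8% of doublet scores, against 1 of 16 in the other library, and the part of doublets in these levels was not tested.

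Free epithelial RNA was estimated from enterocyte transcripts that immune cells should lack. These transcripts summed in T cell-like cells to 7% of their absorptive level in Adipfl/fl and 18.9% in Adipfl/flpVilli-CreT, and goblet transcripts to 0.0930% and 1.53% of their goblet-like level. At those shares free RNA would give 20.7 and 81.8 CPM of the 412 and 374 CPM of Hspa5 measured in T cell-like cells, and 8.32 and 29.1 CPM of the 51.5 and 57.6 CPM of Xbp1. It would give 0.207 and 2.24 CPM of Ern2 where 0.566 and 4.04 CPM were counted. In both libraries the estimate is a smaller part of the measured Hspa5 level than of the Xbp1 and Ern2 levels. Of the 8 Ern2 UMIs in T cell-like cells of the Adipfl/flpVilli-CreT library, 3 came from 1 cell.

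Between genotypes, Dnajb9 was higher in the Adipfl/flpVilli-CreT library in several classes, among them the enterocyte zones below the villus tip. In villus bottom-like cells Dnajb9 gave 166 UMIs (35.0 CPM, 29.9 to 40.8) in the Adipfl/fl library and 610 UMIs (59.7 CPM, 55.0 to 64.6) in the Adipfl/flpVilli-CreT library, a ratio of 1.70 (1.43 to 2.04). In mid-villus-like cells the level was 36.7 and 59.5 CPM, a ratio of 1.62 (1.40 to 1.88). In the villus tip-like cells it was 74.0 and 75.4 CPM, a ratio of 1.02 (0.86 to 1.22). The Dnajb9 ratio was also 1.41 (1.11 to 1.80) in goblet-like cells, 1.45 (0.98 to 2.21) in TA-like cells and 1.49 (1.06 to 2.10) in an unnamed cluster led by Areg. It was 1.49 (1.36 to 1.63) in the pooled absorptive cells and 1.39 (1.29 to 1.49) over all cells. It lay below 1 in tuft-like cells, at 0.79 (0.52 to 1.18), and in cycling T cell-like cells, at 0.74 (0.39 to 1.39). Within the 3 clusters that make up the mid-villus-like class the Dnajb9 ratios were 1.24 (0.91 to 1.70), 1.73 (1.42 to 2.13) and 1.65 (1.21 to 2.29). Dnajb9 was the only 1 of 9 members at least 1.5-fold higher in Adipfl/flpVilli-CreT in the villus bottom-like class, beside 0.966% of 7351 genes, and the only one of 9 in the mid-villus-like class, beside 1.18% of 6784 genes. Cells under 10% mitochondrial UMIs gave a villus bottom-like ratio of 1.36, which is not past the fold, and the mid-villus-like ratio was 1.48 with 30 components and 1.4 with cells named one by one. The median mitochondrial share was 5.46% and 5.27% in villus bottom-like and 17.8% and 15.2% in mid-villus-like cells. None of these differences can be set against animals, and the library and the genotype cannot be told apart.

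Of the other members and the listed genes at or above 10 CPM, only Herpud1 was at least 1.5-fold higher in villus bottom-like or mid-villus-like cells. Its ratios, given below, were above those of Dnajb9. In villus bottom-like cells 0 of 17 listed ER chaperones and foldases, 1 of 15 degradation genes and 0 of 10 genes of the PERK and ATF4 branch were at least 1.5-fold higher in Adipfl/flpVilli-CreT, beside 0.966% of all genes. In mid-villus-like cells 0 of 18, 1 of 15 and 0 of 8 were, beside 1.18%. The median log2 ratios of the members and these lists, in that order, were 0.17, 0.13, 0.27 and 0.036 in villus bottom-like cells, beside 0.0029 over all genes. In mid-villus-like cells they were 0.084, 0.14, 0.097 and 0.17, beside 0.029. For the heat shock list they were -0.095 and 0.11. Hspa5 stood at 428 and 597 CPM in villus bottom-like cells, a ratio of 1.40 (1.33 to 1.47). In mid-villus-like cells Hspa5 stood at 309 and 399 CPM, a ratio of 1.29 (1.23 to 1.36). Its ratios within the mid-villus-like clusters 3, 5 and 7 were 1.185 (1.034 to 1.360), 1.311 (1.226 to 1.402) and 1.101 (0.995 to 1.218). Those of clusters 3 and 7 lay below the interval of the whole class, and the interval of cluster 7 spans 1. The part of the mix of clusters in the ratio of the class was not tested. The listed gene past the fold was Herpud1, an ER membrane protein of the degradation pathway, in villus bottom-like cells with 42.2 and 85.3 CPM and a ratio of 2.02 (1.73 to 2.37) and in mid-villus-like cells with 70.7 and 123.9 CPM and a ratio of 1.75 (1.58 to 1.95). Manf, a secreted ER stress factor, stood at ratios of 1.43 (1.33 to 1.53) and 1.47 (1.35 to 1.59) there, not past the fold. Herpud1 and Manf were chosen here after their values were seen. Hsp90b1 differed by 1.07 times (1.02 to 1.11) and Pdia4 by 1.08 times (0.96 to 1.23) in villus bottom-like cells. The heat shock list summed to 2816 and 2475 CPM and the immediate early genes to 1668 and 1579 CPM in villus bottom-like cells. In mid-villus-like cells the heat shock list summed to 857 and 863 CPM. Goblet markers summed to 182 and 1440 CPM in villus bottom-like cells, and T cell markers to 32.1 and 191 CPM, more in the Adipfl/flpVilli-CreT library. The part of these in the differences was not tested.

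**Figure D4:**
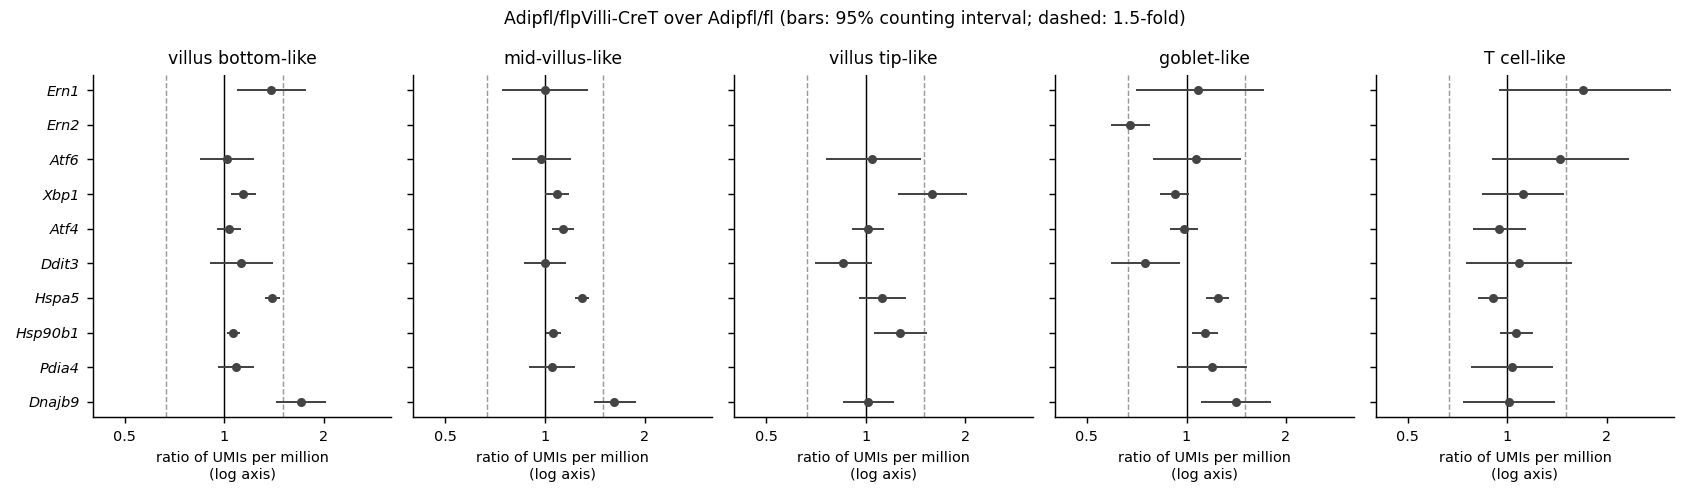
Ratio of Adipfl/flpVilli-CreT to Adipfl/fl level for members at or above 10 CPM, on a log axis with 95% counting intervals. Panels show villus bottom-like, mid-villus-like, villus tip-like, goblet-like and T cell-like cells, with lines at 1 and at 1.5-fold either way. Dnajb9 lies at 1.70 and 1.62 in villus bottom-like and mid-villus-like cells, and Hspa5 lies at 1.40 and 1.29 there and at 0.91 in T cell-like cells.

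Across all classes, Hspa5 had a ratio above 1 in 12 of 14 and an interval above 1 in 8, Dnajb9 in 12 of 14 and 5, and Xbp1 in 11 of 14 and 7. Pdia4 had 11 of 13 and 1, Hsp90b1 10 of 14 and 5, and Atf4 9 of 14 and 2. Atf6 had 7 of 14 and 1, Ern1 6 of 11 and 1, Ddit3 5 of 13 and 0, and Ern2 3 of 4 and 1. Intervals lay below 1 in 2 classes each for Hsp90b1 and Ern1 and in 1 each for Ern2 and Ddit3. The same counts were not taken over all genes, and every class comes from the same libraries. Of the 7 members at or above 10 CPM in villus tip-like cells, Xbp1 alone was at least 1.5-fold higher (4.03% of 5262 genes), with 88 UMIs (37.2 CPM) and 386 UMIs (58.9 CPM), a ratio of 1.58 (1.25 to 2.02). That ratio was 1.43 with more than 1000 genes per barcode, 1.35 with the mitochondrial share over 13 genes and 1.44 with 30 components, none of them past the fold. Below that limit Ern1 was at a ratio of 2.02 (1.02 to 4.44) and Pdia4 at 2.65 (0.80 to 13.8). In cluster 0 and cluster 2 of that class the Xbp1 ratios were 1.66 (1.21 to 2.31) and 1.49 (1.05 to 2.16). In T cell-like cells 1 of 9 members was past 1.5-fold, Ern1 at 10.8 and 18.2 CPM, a ratio of 1.69 (0.94 to 3.12) whose interval spans 1 (9.08% of genes).

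Counts of members past 1.5-fold between the libraries were also taken in the other classes and directions. In villus bottom-like and mid-villus-like cells none was lower in Adipfl/flpVilli-CreT (0.775% and 0.914% of genes), and the same held for villus tip-like (2.6%) and T cell-like cells (6.17%). In stem-like cells none was higher (5.09%) or lower (4.83%), nor in TA-like cells (4.49% and 3.54%), tuft-like cells (11.9% and 10.9%) or the pooled absorptive cells (0.845% and 0.673%). In cycling T cell-like cells Xbp1 was higher, at 33.8 and 60.6 CPM (7.65% of genes), and none was lower (7.44%). Free epithelial RNA, estimated as above, would give 3.06 and 15.1 CPM of that Xbp1. The classes with few UMIs had larger backgrounds. In enteroendocrine-like cells Ern2 and Atf6 were higher (18.9%) and Ern1 and Ddit3 lower (15.8%), in myeloid-like cells Ern2, Xbp1, Pdia4 and Dnajb9 were higher (31.3%) and Ddit3 lower (19.4%), and in B or plasma-like cells Atf6, Atf4 and Dnajb9 were higher (29.7%) and none lower (25.8%). The direction turned under at least 1 alternative for Ern2 in enteroendocrine-like and for Ern2, Pdia4 and Ddit3 in myeloid-like cells. In enteroendocrine-like cells of the Adipfl/flpVilli-CreT library 1 of 57 cells held 18 of the 33 Atf6 UMIs, and without the richest cell the Atf6 ratio of 2.02 was 1.09. From Adipfl/fl to Adipfl/flpVilli-CreT the goblet markers in that class went from 2377 to 13224 CPM and enterocyte transcripts from 7908 to 18055 CPM. In myeloid-like cells goblet markers went from 353 to 14146 CPM, Paneth markers from 11.4 to 4195 CPM and fibroblast or muscle markers from 30.4 to 2449 CPM, and free RNA would give 7.48 of the 24.5 CPM of Ern2 and 43.7 of the 184 CPM of Xbp1 in the Adipfl/flpVilli-CreT library. In B or plasma-like cells T cell markers went from 25.8 to 4833 CPM and immediate early genes from 3186 to 986 CPM. The part of these in the ratios was not tested.

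In goblet-like cells no member was past 1.5-fold in either direction at the main scaling, beside 9.7% of 6853 genes higher and 3.43% lower. Ern2 came closest, at 203 and 137 CPM, a ratio of 0.68 (0.59 to 0.77) that lay below 1 with the intervals not touching. Ddit3 stood at 62.8 and 47.1 CPM, a ratio of 0.75 (0.59 to 0.96), and Hspa5 at 483 and 599 CPM, a ratio of 1.24 (1.15 to 1.34). Dnajb9 stood at 49.6 and 69.8 CPM, a ratio of 1.41 (1.11 to 1.80) that reached 1.51 under 10% mitochondrial UMIs. The Ern2 ratio was 0.65 under the TMM scaling of edgeR, 0.62 with the 6 goblet transcripts out of the denominator and 0.63 in goblet-like cells without a defensin UMI, and each of these puts it past 1.5-fold. TMM multiplied every ratio of this class by 0.963, and the denominator without goblet transcripts also lowered them all. Both therefore moved the Ern2 and Ddit3 ratios further from 1 and the Hspa5 and Dnajb9 ratios closer to 1. Goblet markers summed to 322325 and 264834 CPM in these cells, Paneth markers to 5269 and 2835 CPM and enterocyte transcripts to 14305 and 19299 CPM in the same order of libraries. Beyond the recomputed ratios just given, their part in the Ern2 ratio was not tested.

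The named list genes in goblet-like cells showed a mixed pattern. Over all genes of this class 9.7% were at least 1.5-fold higher in Adipfl/flpVilli-CreT and 3.43% lower, and the list counts stand beside those shares. Of 19 listed ER chaperones and foldases 4 were at least 1.5-fold higher (Canx, Pdia5, Creld2 and Fkbp11) and none was lower, with a median log2 ratio of 0.26 beside 0.097 over all genes. Pdia5, a disulfide isomerase, stood at 7.39 and 16.2 CPM, a ratio of 2.19 (1.21 to 4.24). Fkbp11 stood at 15.3 and 25.7 CPM, a ratio of 1.68 (1.1 to 2.65). Of 15 listed degradation genes none was past the fold, with Edem2 at a ratio of 1.32 (1.02 to 1.72) and Herpud1 at 1.31 (1.11 to 1.56). Of 13 genes of the PERK and ATF4 branch 2 were higher (Eif2s1 and Slc3a2) and 4 were lower (Asns, Nupr1, Ddit4 and Vldlr), with a median log2 ratio of -0.16. Nupr1 stood at 463 and 227 CPM, a ratio of 0.49 (0.45 to 0.54), and Eif2s1, the translation factor that PERK phosphorylates, at a ratio of 1.72 (1.09 to 2.81). Of 8 heat shock genes none was past the fold, with Dnaja1 at a ratio of 1.45 (1.19 to 1.78) and Hspd1 at 1.13 (0.79 to 1.63).

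Barcodes above the mitochondrial limit, 4670 and 4263 with more than 500 genes, carried another mix of the members. Levels in them are per 1000000 UMIs without mitochondrial ones. Ddit3 stood at 74.7 and 73.7 CPM in removed barcodes against 42.7 and 41.7 CPM in kept ones, a ratio of 1.75 (1.58 to 1.93) and 1.77 (1.61 to 1.94). Atf4 was 1.12 times (1.06 to 1.18) and 1.22 times (1.17 to 1.28) as high in them. Hspa5 was lower, at 172 and 212 CPM against 407 and 497 CPM, a ratio of 0.42 and 0.43. Hsp90b1 was at 0.32 and 0.33, Pdia4 at 0.24 and 0.26 and Ern2 at 0.065 and 0.045 of the kept level. Dnajb9 was at 0.84 (0.74 to 0.95) and 0.95 (0.86 to 1.04), the second of which does not exclude equality. The kept cells here are all classes pooled, and the removed barcodes were not assigned to classes. Per 1000000 of all UMIs, Ddit3 stood at 61.3 and 52.5 CPM in kept villus tip-like cells, whose median mitochondrial share was 20.3% and 20.4%. The part of the mix of cell classes in these ratios was not tested.

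**Figure D5:**
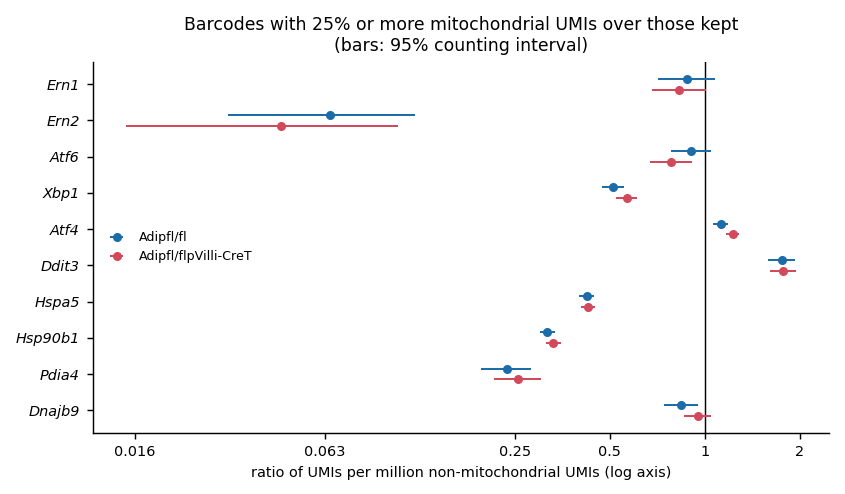
Ratio of level in removed barcodes (25% or more mitochondrial UMIs) to kept cells for each member and library, on a log axis with 95% counting intervals. Ddit3 lies at 1.75 and 1.77, Atf4 just above 1 and the other members below 1, with Ern2 lowest.

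The levels of the members across classes were compared with those of 7443 other genes, over 24 profiles (12 classes in 2 libraries) of log2(CPM + 5), by Pearson correlation, as a description. Classes needed at least 20 cells in each library, so B or plasma-like cells, with 7 and 16, were left out. The profiles share libraries and class sizes, and no p-value is given. Ern2 was most like Gm44985 (r = 0.98), Bcas1 and Tpsg1 (0.97 each). Hspa5 was most like Pdia3 (0.97), Rpn2 and Selenof (0.96 each), and Pdia4 most like Selenof (0.97), Ddost and Idh2. Hsp90b1 was most like Nsfl1c (0.96), Xbp1 most like Tle1 (0.93), Ddit3 most like Gtpbp2 (0.90) and Dnajb9 most like Apobec1 (0.82). Among the members themselves, Hspa5 and Pdia4 had r = 0.94, and Hspa5 and Hsp90b1 0.89, whereas Ddit3 had -0.76 with Pdia4 and -0.74 with Hsp90b1.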

How the data were processed

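Per the labels and the study's methods, reads of both 10x 3′ libraries were demultiplexed with bcl2fastq 5.0.1 and counted against mm10 with Cell Ranger (7.1.0 in the file header). The authors deposited raw UMI counts per gene and barcode, with no normalization, and no cell annotation was used here. Reads were not reprocessed. Gene positions are from GENCODE M21 on GRCm38.

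The 10 members and the 4 pathway lists (ER chaperones and foldases, ER-associated degradation, PERK and ATF4 branch, cytosolic heat shock) were chosen with earlier results of these data known, so no list count is independent support. Barcodes with more than 500 genes and under 25% mt- UMIs were log-normalized to 10000 in Seurat 5.3.0 (R 4.3.3), and 2000 variable genes, 20 components and Louvain resolution 0.8 gave the clusters, after leaving out 78 member and list genes. Crypt and immune clusters were split again at 0.4, a choice made after the clusters were seen. A cluster was named "-like" from at least 3 markers that were 2-fold up with 10 UMIs or more, with no clash among its 10 leading genes, and stayed unnamed when over 95% of it came from 1 library. Enterocyte clusters without a zone were named from the pooled absorptive markers.

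Levels are sums of UMIs per 1000000 UMIs of a class, with exact Poisson 95% intervals. Ratios have exact conditional binomial intervals and a floor of 3 UMIs for a count of 0. Shares have Clopper-Pearson intervals after thinning to 2000 UMIs. All cover counting error only. With 1 library per genotype no test was made and no p-value is given: "past the fold" means a point ratio of at least 1.5 or at most its inverse, among genes with a mean of at least 10 CPM. The named genes were all members and, from each list, the 3 with the largest goblet-like over absorptive ratio (the smaller of both libraries) and the 2 with the largest log2 ratio between libraries in goblet-like cells. The computation of ratios and intervals was run on simulated Poisson counts, the error that the intervals assume. It held no spread between cells or animals, so it checks the arithmetic only. Doublets were not removed, since Scrublet (scanpy 1.11.5) did not work, so cells in the top 8% of scores were left out as an alternative. edgeR 4.0.16 (TMM) and DESeq2 1.42.0 (size factors) were used only for scaling. Further alternatives were other cell filters, clusterings, denominators and folds, cells named one by one, means per cell and the richest cell left out. Added after seeing the data were ratios within clusters, a denominator without 6 goblet transcripts, and goblet-like cells without a defensin UMI. Scripts ran in Python 3.11.15.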

Additional observations from a re-analysis of the deposited data

Results flagged for a closer look

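For 3 members the counting intervals of the ratio between libraries lay above 1 in some classes and below 1 in others, and the difference between classes was not tested. Ern1 was at 1.39 in villus bottom-like cells (20.0 and 27.8 CPM), at 0.41 in enteroendocrine-like cells (47.2 and 19.2 CPM, from 19 and 9 UMIs) and at 0.63 in an unnamed cluster led by Areg (30.6 and 19.1 CPM). Ern2 was at 0.68 in goblet-like cells (203 and 137 CPM). In myeloid-like cells 0 UMIs in Adipfl/fl stood against 4 in Adipfl/flpVilli-CreT. With the 0 set to 3 UMIs that ratio was 2.15, and its counting interval began at 1.06. Of those 4 UMIs 3 came from 1 cell, goblet markers in the class went from 353 to 14146 CPM and free RNA would give 7.48 of the 24.5 CPM of Ern2. Hsp90b1 was at 1.08 in TA-like cells, at 1.07, 1.06 and 1.27 in the bottom, middle and tip of the villus and at 1.14 in goblet-like cells, but at 0.85 in enteroendocrine-like and 0.75 in B or plasma-like cells, the latter from 566 UMIs in 7 cells and 729 UMIs in 16 cells. In B or plasma-like cells T cell markers went from 25.8 to 4833 CPM and immediate early genes from 3186 to 986 CPM, and the part of these in the ratios was not tested. Each of these rests on 1 library per genotype.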

How the results depend on the processing

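No paired analysis was possible because each genotype has 1 library. Of 1788 ratios between libraries under the alternatives chosen at the outset, 1719 stayed within the counting interval of the reported value, 61 left it and 8 reversed. A ratio could count as reversed only if the reported value was past 1.5-fold at a mean of at least 10 CPM. Ratios nearer 1 that changed side were counted as staying or leaving. Reversed were Ern2 in enteroendocrine-like cells (0.64 without the top 8% of doublet scores), Ern2 in myeloid-like cells (0.55 with cells named one by one, 0.57 without those scores and 0.57 without the richest cell), Ddit3 in myeloid-like cells (1.80 with more than 1000 genes per barcode, 1.42 with the mitochondrial share taken over 13 genes and 1.71 without the top doublet scores) and Pdia4 in myeloid-like cells (0.68 with cells named one by one).

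Of 240 ratios of goblet-like to absorptive level, 194 stayed within their interval. The 4 members higher in goblet-like cells became 8 by the mean of per-cell CPM and 2 at a 2-fold limit. At 2-fold the count lower in villus bottom-like than tip-like cells went from 1 to 0, as did the counts higher in Adipfl/flpVilli-CreT in villus bottom-like, mid-villus-like, villus tip-like and T cell-like cells. The villus bottom-like count was also 0 under 10% mitochondrial UMIs. The mid-villus-like count was 0 with 30 components (Dnajb9 at 1.48) and with cells named one by one (Dnajb9 at 1.4), and the villus tip-like count was 0 with more than 1000 genes, with the 13-gene mitochondrial share and with 30 components (Xbp1 at 1.43, 1.35 and 1.44). Between villus bottom-like and tip-like cells the 6 members higher in the former became 1 under 10% mitochondrial UMIs (Pdia4). The 1 member lower there was then Atf4 instead of Ddit3. In goblet-like cells the count of 0 higher became 1 under 10% mitochondrial UMIs and with cells named one by one (Dnajb9), 1 without top doublet scores (Pdia4) and 2 by the mean of per-cell CPM (Pdia4 and Dnajb9). The count of 0 lower became 1 without top doublet scores (Ddit3), and 1 with cells named one by one, TMM, size factors, no goblet transcripts in the denominator or no defensin-positive cells (Ern2 in each). With size factors 2 members were higher in T cell-like cells (Ern1 and Atf6). The cause of these moves was not tested. Some alternatives gave no value for a class, since no cluster took its name there. Few UMIs limit the precision in the myeloid-like and B or plasma-like classes, and 1 library per genotype limits every comparison between genotypes.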
